A study of Homo sapiens with 32 samples.

Results

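The clustered protocadherin genes are the alpha, beta and gamma families of protocadherins that lie side by side on chromosome 5. Members were chosen by name alone, as every gene of the 3 count tables named PCDHA, PCDHAC, PCDHB, PCDHGA, PCDHGB or PCDHGC followed by a number. This gave 54 of the 62703 gene identifiers: 16 alpha, 16 beta and 22 gamma genes. The gamma genes were 12 of the A type, 7 of the B type and 3 of the C type, and 2 of the alpha genes (PCDHAC1 and PCDHAC2) were also of the C type. By GENCODE 29 on GRCh38, all lie on the plus strand, with the alpha cluster from 140786136 to 141012347, the beta cluster from 141051135 to 141249365 and the gamma cluster from 141330571 to 141512981.

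The samples came from HEK293T, an established line of human embryonic kidney origin, with a CRISPR/Cas9 knockout of IGF2BP1, IGF2BP2 or IGF2BP3, and a control made in parallel with a guide RNA that targets no gene. The 3 genes encode related RNA-binding proteins that act on mRNA in the cytoplasm. A single clone stood for each knockout, the labels do not say whether the control was a clone or a pool, and no group received a treatment. Poly(A) RNA of whole cells (total), of nuclei and of cytoplasm was sequenced, with 4 control libraries per RNA kind in batches 1 to 4, 2 IGF2BP1 knockout libraries in batches 1 and 2, and 2 libraries each of the IGF2BP2 and IGF2BP3 knockouts in batches 3 and 4. Batch 5 held 2 more cytoplasmic libraries of the IGF2BP3 knockout and no control. The knockout of a gene is also called the clone of that gene below. The series asked how loss of each protein changed the RNA of these cells; with 1 clone per gene, a difference due to the knockout and a difference between clones cannot be told apart.

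Clustered protocadherins are cell surface cadherins that bind the same isoform on a neighbouring cell, and neurons use the combination they display to tell their own branches from those of others. In the alpha and gamma clusters each variable exon has a promoter of its own and is spliced to constant exons at the end of the cluster, while each beta gene is a single exon with no constant part. A cell switches on only a few of the alternate promoters, a choice tied to DNA methylation and to looping by CTCF and cohesin, whereas the C-type promoters are used more uniformly in neurons.

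Libraries held 13689067 to 26119480 counts, so that 3 counts, taken here as the floor of detection, stood for 0.115 to 0.219 CPM (counts scaled by library size). All members together had only 180 to 957 counts in a library, and precision was limited by this number. In total RNA the targeted gene fell in each knockout. IGF2BP1 went from 396 to 469 CPM in the control to 24.7 to 27.1 CPM, IGF2BP2 from 73.6 to 104 CPM to 34.3 to 34.8 CPM, and IGF2BP3 from 80.2 to 86.9 CPM to 43.4 to 44.7 CPM. In the IGF2BP1 knockout, replicate 2 of total RNA and replicate 1 of nuclear RNA held the same count at all 62703 identifiers (0 differed), so 1 of these labels cannot hold for its values. Changes given for a member in total or nuclear RNA of this knockout are therefore given also without that library, while counts of genes, levels and shares there include it.

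The alpha and the gamma genes share their last exons within a cluster, the beta genes are near-copies of each other, and 19 members overlap an antisense gene in an exon, among them PCDHA10, PCDHB2 and PCDHB15. Reads of near-copies may have been split or lost in counting, and whether counting used the strand is not given in the sources used here, so reads of such a member and its antisense partner cannot be told apart. Members with 0 to 3 counts stood beside more than 100 counts of PCDHGC3 in the same library, so reads of the shared exons were not spread over all genes of the cluster. In bulk RNA, fewer cells that express a member and less RNA of it per cell cannot be told apart.

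The promoters are shown because isoform choice is made there. RefSeq promoter windows on GRCh38.p14, from 250 bases before to 50 bases after the start of a gene, were at hand for 47 of the 54 members. The short stretches below hold the conserved sequence element of 3 alpha, 4 beta and 3 gamma members that the results turn on, each on the plus strand, 5′ to 3′, with the 4-base core CGCT in capitals.
PCDHA10: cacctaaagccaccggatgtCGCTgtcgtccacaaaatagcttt
PCDHA11: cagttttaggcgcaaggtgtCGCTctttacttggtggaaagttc
PCDHA12: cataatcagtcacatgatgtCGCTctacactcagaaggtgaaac
PCDHB2: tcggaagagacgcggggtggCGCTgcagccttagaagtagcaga
PCDHB12: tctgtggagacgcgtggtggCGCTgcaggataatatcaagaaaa
PCDHB13: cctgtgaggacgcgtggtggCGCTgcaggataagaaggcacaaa
PCDHB15: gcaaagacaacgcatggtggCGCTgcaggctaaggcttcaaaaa
PCDHGA1: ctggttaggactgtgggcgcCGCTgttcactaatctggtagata
PCDHGA7: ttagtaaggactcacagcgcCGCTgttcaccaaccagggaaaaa
PCDHGA11: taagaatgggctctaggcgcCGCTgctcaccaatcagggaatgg

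The stretches lie at chr5:140855837-140855880 for PCDHA10, chr5:140868879-140868922 for PCDHA11, chr5:140875240-140875283 for PCDHA12, chr5:141094540-141094583 for PCDHB2, chr5:141208639-141208682 for PCDHB12, chr5:141213861-141213904 for PCDHB13, chr5:141245310-141245353 for PCDHB15, chr5:141330399-141330442 for PCDHGA1, chr5:141382645-141382688 for PCDHGA7 and chr5:141420968-141421011 for PCDHGA11. The longer forms searched were picked after the windows had been read, the beta form as the longest stretch with CGCT that at least 10 beta windows share, so their shares only describe the windows; both strands were searched, and every form contains CGCT. CGCT itself was in 97.9% of the 47 member windows against 70.0% of all 35116 windows, and CGCTG in 87.2% against 48.0%. The alpha form TGTCGCT was in 10 of 11 alpha windows outside the C type against 1.76% of all windows. The beta form GGTGGCGCTGCAG was in 10 of 14 beta windows against 0.0427% of all, and 15 windows of the whole table held it. The gamma form GCCGCTGT was in 9 of 18 A-type and B-type gamma windows against 1.63% of all. Where the alpha or beta form was found, its CGCT began a median of 51.5 bases before the start in alpha (38 to 81) and 57.5 in beta (from 3 after to 79 before). In gamma A and B the median was 64.0 (40 to 95), taken over the 10 windows with the shorter form GCCGCTG.

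The gamma C-type genes PCDHGC3 and PCDHGC4, which carried the largest numbers of counts among members that differed between clones, are shown by the 150 bases before the start, at chr5:141475816-141475965 and chr5:141484880-141485029, with GCCGCTGT in capitals.
PCDHGC3: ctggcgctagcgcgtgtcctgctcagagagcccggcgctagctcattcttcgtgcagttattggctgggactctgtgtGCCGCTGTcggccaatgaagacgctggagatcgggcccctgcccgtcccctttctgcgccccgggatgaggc
PCDHGC4: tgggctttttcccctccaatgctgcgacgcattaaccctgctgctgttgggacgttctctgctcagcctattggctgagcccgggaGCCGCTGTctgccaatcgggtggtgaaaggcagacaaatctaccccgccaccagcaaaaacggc
Both C-type gamma windows at hand held GCCGCTGT, with its CGCT beginning 70 bases before the start in PCDHGC3 and 62 in PCDHGC4, and both held CCAAT, which was in 34% of member windows and 34.6% of all windows.

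HEK293T cells of the control used a small set of members, and each clone showed a different one. A member is called on where every library of a group had 10 or more counts, off where every library had 3 or fewer, and low otherwise. In total RNA of the control 4 members were on (PCDHA10, PCDHGA11, PCDHGC3 and PCDHGC4), 16 were low and 34 were off. The IGF2BP1 knockout had 7 on, the same 4 with PCDHGA7, PCDHB2 and PCDHB14. The IGF2BP2 knockout had 14 on, which added PCDHA11, PCDHGA1, PCDHGB7, PCDHB8, PCDHB12, PCDHB13 and PCDHB15 to those 7. The IGF2BP3 knockout had 10 on: the 4 of the control with PCDHA11, PCDHGA7, PCDHGA10, PCDHB2, PCDHB13 and PCDHB15. Since the control had 4 libraries to pass and each knockout 2, a member near 10 counts had to pass more often to be on in the control.

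**Figure D1:**
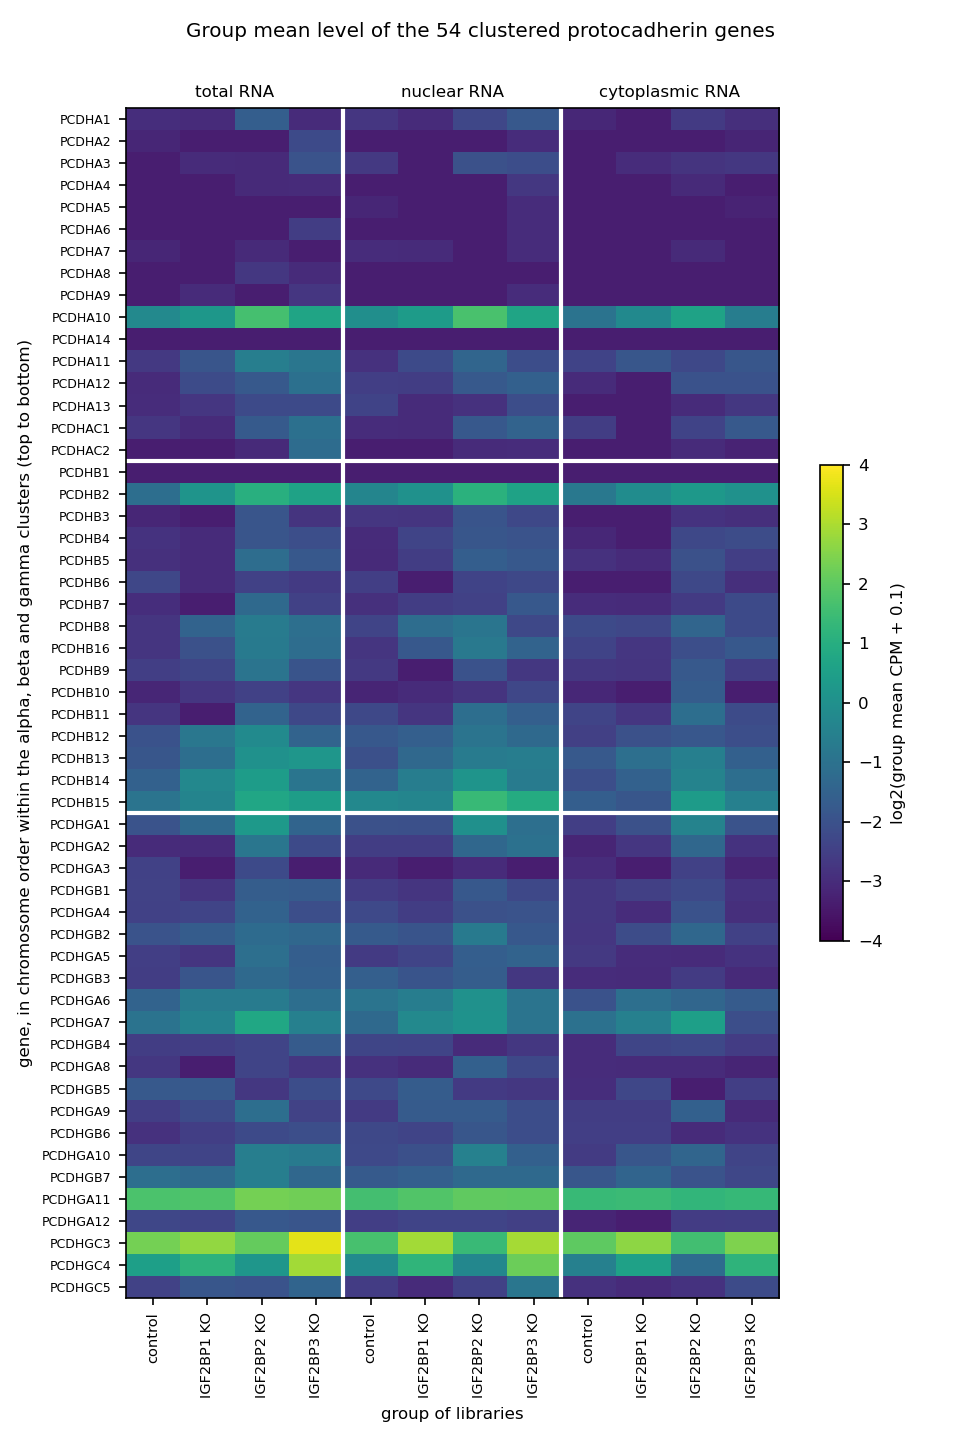
Group mean level of the 54 members, as log2(mean CPM + 0.1), in chromosome order from top to bottom, by group of libraries (columns: total, nuclear and cytoplasmic RNA). PCDHGA11 and PCDHGC3 are bright in every column, most alpha genes are dark in every column, and the beta genes are brightest in the IGF2BP2 knockout.

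PCDHGC3 and PCDHGA11 were on in every group of every RNA kind. In nuclear RNA 4, 7, 10 and 7 members were on in the control and in the IGF2BP1, IGF2BP2 and IGF2BP3 knockouts. In cytoplasmic RNA the numbers were 2 (PCDHGA11 and PCDHGC3), 6, 9 and 4. The IGF2BP3 knockout had 7 on in cytoplasmic RNA when only its libraries of batches 3 and 4 were counted, an alternative chosen after the data were seen. At the other end, PCDHA14 and PCDHB1 had 0 counts in all 32 libraries, 9 members (8 alpha genes and PCDHB1) never passed 3 counts, and 33 of the 54 never reached 10 counts. All exon bases of PCDHA14 are shared with another gene, so no RNA of it and reads lost in counting cannot be told apart.

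Members that were on in a group and off in another of the same RNA kind numbered 3. PCDHA11 had 11 and 11 counts in total RNA of the IGF2BP2 clone and 10 and 10 in the IGF2BP3 clone, against 3, 0, 2 and 0 in the control and 4 and 3 in the IGF2BP1 clone. PCDHB8 had 10 and 10 counts in the IGF2BP2 clone and 6 and 10 in the IGF2BP3 clone, against 3, 0, 0 and 1 in the control. Since the members were picked by the limits that define on and off, such groups cannot overlap, and the counts stood close to these limits. PCDHGA1 had 16 and 14 counts in cytoplasmic RNA of the IGF2BP2 clone against 3 and 3 in the IGF2BP1 clone and 0, 4, 2 and 0 in the control.

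Fold changes come from edgeR's quasi-likelihood test, fitted on all genes of an RNA kind with the batch as a term, and are log2 of knockout over control; called means a Benjamini-Hochberg adjusted p under 0.05 over all genes tested. In cytoplasmic RNA the term for batch 5, which has no control, takes up both libraries of that batch. Cytoplasmic changes of the IGF2BP3 clone therefore come from its libraries of batches 3 and 4. Its libraries of batch 5 add only to the estimate of the spread. In total RNA 16 of the 54 members passed the filter on low counts. Called members numbered 2 in the IGF2BP1 clone, all higher, where 24.2% of the 18745 genes tested were called and 10.7% were called higher. In the IGF2BP2 clone 11 were called, all higher, where 47% of genes were called, 23.3% higher and 23.7% lower. In the IGF2BP3 clone 8 were called, all higher, where 46.9% of genes were called and 23.5% were called higher. The median change over the 16 members was 0.91, 1.82 and 0.91 on the log2 scale in the 3 knockouts, beside 0.00, 0.02 and 0.02 over all genes. A member that is low in the control passes the filter only through a group in which it is high, so these counts and medians are not evidence about the cluster as a whole. Single members of this kind, such as PCDHA11, PCDHB12 and PCDHGA10, were tested only because a clone was high, which limits their calls too. The 3 comparisons share their control libraries. Because of the batch term each knockout was set mainly against the 2 control libraries of its own batches: without control replicate 3 or 4 the IGF2BP2 clone had 6 calls and the IGF2BP3 clone 2 or 3, and without either of their own libraries they had 4 or 5 and 4.

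**Figure D2:**
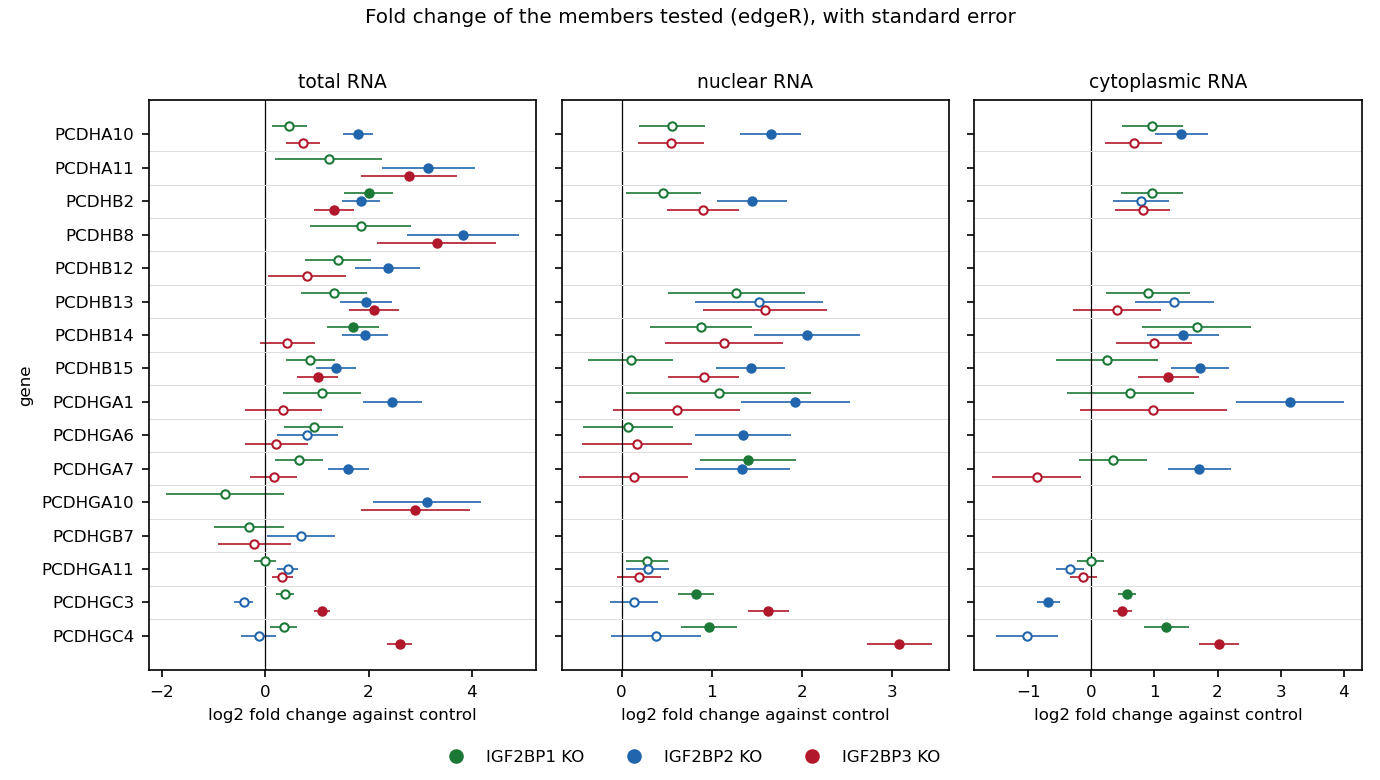
Log2 fold change of each tested member against the control (horizontal axis) in total, nuclear and cytoplasmic RNA, from edgeR, with bars of 1 standard error; colours mark the 3 knockouts. PCDHGC4 stands at 2.60 in total RNA of the IGF2BP3 clone and at -0.13 in the IGF2BP2 clone, and most beta members of the IGF2BP2 clone lie to the right of 0.

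Among the alpha genes, PCDHA10 was the main isoform. It had 19, 13, 17 and 13 counts in total RNA of the control, 18 and 27 in the IGF2BP1 clone, 53 and 66 in the IGF2BP2 clone and 40 and 27 in the IGF2BP3 clone. In CPM the control lay at 0.677 to 0.811, the IGF2BP2 clone at 3.28 and 2.81 and the IGF2BP3 clone at 1.62 and 1.34, so that no knockout library fell within the control's range. PCDHA10 rose by 1.80 (SE 0.29, adjusted p = 0.000252) in the IGF2BP2 clone, while the change of 0.73 (SE 0.32, adjusted p = 0.0773) in the IGF2BP3 clone and that of 0.46 (SE 0.34, adjusted p = 0.348) in the IGF2BP1 clone did not pass. Without the library shared with the nuclear table, the value in the IGF2BP1 clone was 0.07 (adjusted p = 0.944). In nuclear RNA of the IGF2BP2 clone it had 40 and 74 counts against 12, 26, 19 and 15 (1.65, SE 0.33, adjusted p = 5.79e-05). In the cytoplasm it had 30 and 36 counts against 7, 9, 4 and 12 (1.42, SE 0.42, adjusted p = 0.00346), again above every control library.

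The other alpha genes were few and faint. PCDHA12 had 9 and 8 counts in total RNA of the IGF2BP3 clone, 5 and 2 in the IGF2BP2 clone, 2 and 3 in the IGF2BP1 clone, and 0, 1, 1 and 0 in the control. The C-type gene PCDHAC1 had 9 and 8 counts in the IGF2BP3 clone, 3 and 5 in the IGF2BP2 clone, 0 and 1 in the IGF2BP1 clone, and 0, 2, 2 and 0 in the control. PCDHAC2, the C-type gene nearest the constant exons, had 6 and 9 counts in total RNA of the IGF2BP3 clone and at most 1 count in every other library of the series, its own nuclear and cytoplasmic fractions included. For these 3 genes both total RNA libraries of the IGF2BP3 clone lay above every other total RNA library. How many of all genes were separated in this way was not counted, and 46.9% of genes tested were called in this clone. PCDHA3 had 4 and 3 counts in total RNA of the IGF2BP3 clone against 0 in all 4 control libraries. PCDHA1 had 6 and 2 counts in the IGF2BP2 clone against 0, 0, 0 and 2. None of these 5 genes passed the filter, so none was tested.

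PCDHA11 did pass, but only through the IGF2BP2 and IGF2BP3 clones, in which it was high. Its change was 3.16 (SE 0.90, adjusted p = 0.0111) in the IGF2BP2 clone and 2.79 (SE 0.92, adjusted p = 0.0244) in the IGF2BP3 clone in total RNA. These calls held in 12 and 11 of 18 alternatives. PCDHA10 took 78.5% of the alpha counts of the control in total RNA (95% Wilson interval 68.2% to 86.1%, 79 counts in all). Its share was 68.0% (60.8% to 74.5%) in the IGF2BP2 clone and 41.6% (34.3% to 49.3%) in the IGF2BP3 clone. The intervals of the control and the IGF2BP3 clone did not overlap; they pool libraries and cover counting error only, and reads without molecular identifiers are not independent molecules. In nuclear RNA the share was 71.3% (61.8% to 79.2%) in the control, 76.5% (69.1% to 82.6%) in the IGF2BP2 clone and 53.3% (43.8% to 62.6%) in the IGF2BP3 clone. In cytoplasmic RNA it was 68.1% (53.8% to 79.6%), 72.5% (62.6% to 80.6%) and 44.2% (35.6% to 53.1%). PCDHA10 thus held the larger part of the alpha counts in each RNA kind of the IGF2BP2 clone, and the smaller part in total RNA of the IGF2BP3 clone. In nuclei and cytoplasm of the IGF2BP3 clone both intervals included an even split. Single libraries there lay on either side of it, with 49.1% and 58.0% in nuclei and 55.8% and 44.2% in cytoplasmic replicates 1 and 2. The cytoplasmic share also pools libraries of batch 5, which nuclear RNA lacks, so no difference between these fractions is read from the pooled shares.

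The beta genes were all low or off in total RNA of the control. PCDHB2 led the differences, with 4, 6, 11 and 8 counts in the control, 17 and 25 in the IGF2BP1 clone, 28 and 52 in the IGF2BP2 clone and 42 and 23 in the IGF2BP3 clone. All 6 knockout libraries lay above the control. The changes were 2.00 (SE 0.47, adjusted p = 0.00868), 1.85 (SE 0.37, adjusted p = 0.00124) and 1.33 (SE 0.38, adjusted p = 0.012). PCDHB14 had 5, 4, 5 and 6 counts in the control, 15 and 15 in the IGF2BP1 clone, 20 and 29 in the IGF2BP2 clone and 13 and 7 in the IGF2BP3 clone. It rose in the first 2 clones, by 1.70 (SE 0.51, adjusted p = 0.0278) and 1.93 (SE 0.45, adjusted p = 0.00338), and its change was 0.42 (SE 0.53, adjusted p = 0.535) in the third. Without the library shared with the nuclear table, PCDHB2 was still called in the IGF2BP1 clone (2.20, adjusted p = 0.0344) and PCDHB14 was not (1.71, adjusted p = 0.11).

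Further beta genes rose in the IGF2BP2 and IGF2BP3 clones. PCDHB13 had 4, 2, 3 and 5 counts in total RNA of the control, 15 and 22 in the IGF2BP2 clone and 25 and 22 in the IGF2BP3 clone, changes of 1.95 (SE 0.51) and 2.10 (SE 0.49). PCDHB15 had 7, 7, 13 and 8 counts in the control, 28 and 33 in the IGF2BP2 clone and 35 and 22 in the IGF2BP3 clone, changes of 1.37 (SE 0.38) and 1.01 (SE 0.39). For both genes neither knockout overlapped the control in counts, and the adjusted p was 0.00669 and 0.00324 for PCDHB13 and 0.0101 and 0.0466 for PCDHB15. In the IGF2BP3 clone the call of PCDHB13 held in 17 of 18 alternatives and that of PCDHB15 in 9 of 18. PCDHB12 had 3, 4, 2 and 3 counts in the control and 15 and 15 in the IGF2BP2 clone, where it rose by 2.37 (SE 0.63, adjusted p = 0.0075). It had 8 and 4 counts in the IGF2BP3 clone, a change of 0.80 (SE 0.76, adjusted p = 0.406).

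In the fractions fewer beta genes were called. In nuclear RNA of the IGF2BP2 clone PCDHB2 (1.44, SE 0.39), PCDHB14 (2.05, SE 0.59) and PCDHB15 (1.43, SE 0.38) rose. In its cytoplasm PCDHB14 had 15 and 15 counts against 1, 2, 4 and 3 (1.45, SE 0.58, adjusted p = 0.0277) and PCDHB15 had 35 and 22 against 2, 4, 5 and 6 (1.72, SE 0.46, adjusted p = 0.00154). In the cytoplasm of the IGF2BP3 clone PCDHB15 had 19, 25, 5 and 10 counts (1.22, SE 0.49, adjusted p = 0.0283), of which 1 library lay within the control's range. The 2 highest of these libraries were those of batches 3 and 4. PCDHB13 had 12 and 15 cytoplasmic counts in the IGF2BP2 clone and 4, 12, 4 and 4 in the IGF2BP3 clone against 5, 3, 5 and 2 in the control, and no change of it was called there. PCDHB11, among the members with the widest spread of cytoplasmic group means, had 10 and 7 counts in the IGF2BP2 clone and 0 to 6 in every other cytoplasmic library.

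**Figure D3:**
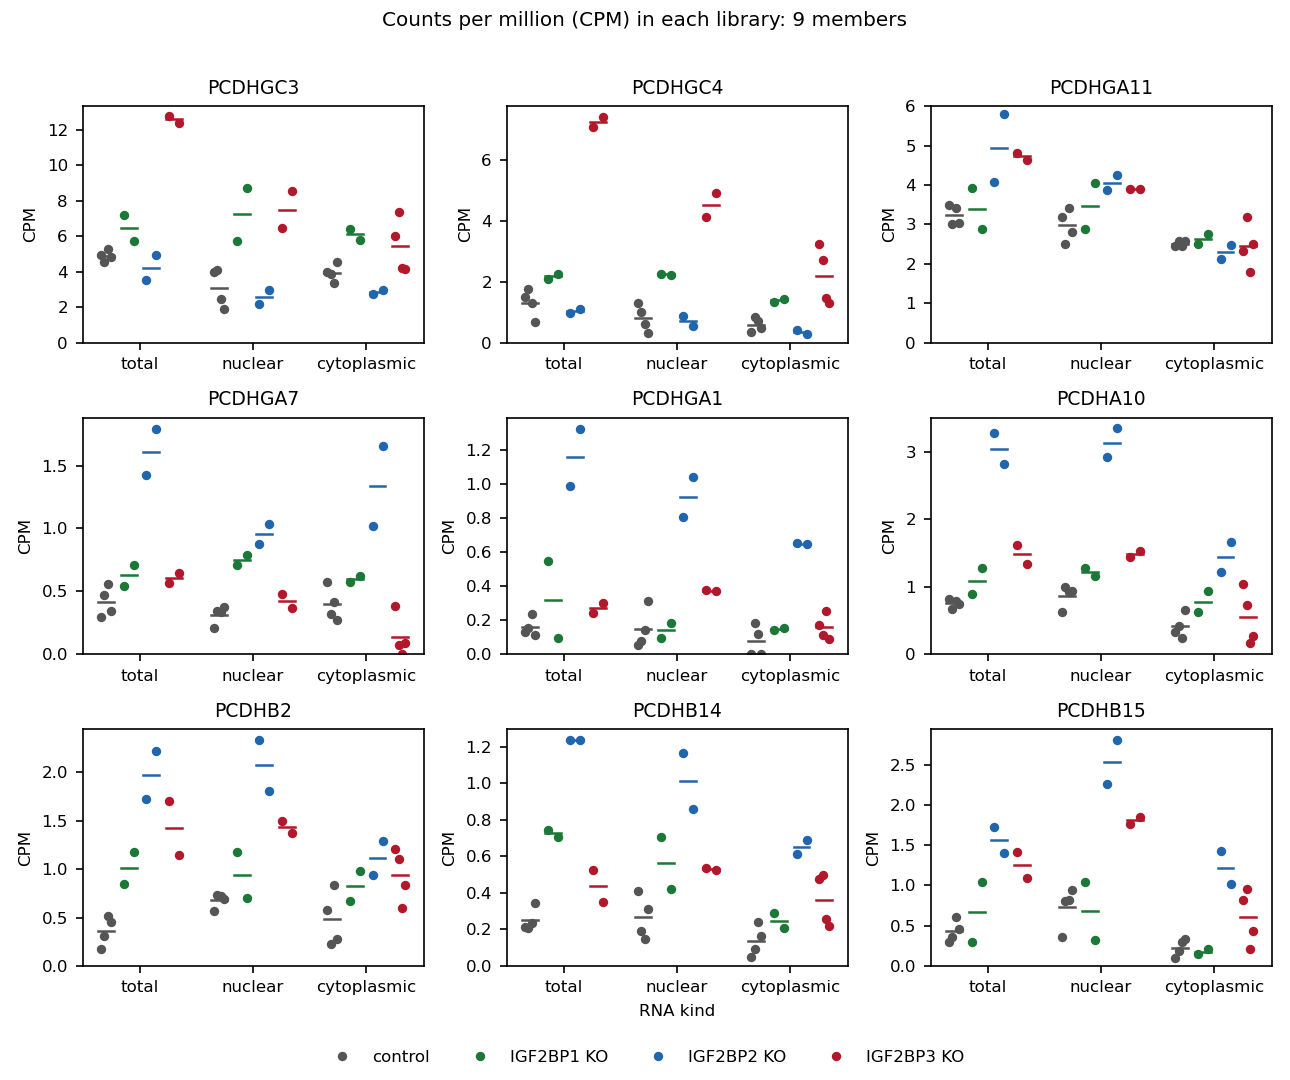
CPM of 9 members in each library (points) with the group mean (bar), by RNA kind, for the control and the 3 knockouts. PCDHGC4 and PCDHGC3 are highest in total RNA of the IGF2BP3 clone (7.09 and 7.41 CPM, and 12.8 and 12.4 CPM), PCDHA10 is highest in the IGF2BP2 clone, and PCDHGA11 spans only 2.87 to 5.80 CPM over all total RNA libraries.

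Of the A-type and B-type gamma genes, PCDHGA11 had the most counts in every group. It had 82, 58, 73 and 53 counts in total RNA of the control, 79 and 61 in the IGF2BP1 clone, 66 and 136 in the IGF2BP2 clone and 119 and 93 in the IGF2BP3 clone. In CPM the control stood at 3.02 to 3.5, the IGF2BP1 clone at 3.92 and 2.87, and the IGF2BP2 (4.08 and 5.80) and IGF2BP3 clones (4.82 and 4.63) above it. PCDHGA11 was not called in any comparison of a knockout with the control, and its largest change there was 0.44 (SE 0.20, adjusted p = 0.0952) in total RNA of the IGF2BP2 clone, which passed in 4 of 19 alternatives. In the cytoplasm it spanned 2.45 to 2.58 CPM in the control and 1.79 to 3.18 CPM in the knockouts.

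PCDHGA7 and PCDHGA1 rose in the IGF2BP2 clone. PCDHGA7 had 23 and 42 counts in total RNA of that clone against 7, 9, 12 and 6 in the control (1.61, SE 0.39, adjusted p = 0.00428). In its cytoplasm PCDHGA7 had 25 and 36 counts against 12, 7, 7 and 5 (1.71, SE 0.50, adjusted p = 0.00343). Both groups stood clear of the control. PCDHGA7 had 9, 2, 0 and 2 counts in the cytoplasm of the IGF2BP3 clone, the last 2 of batch 5. Its change of -0.87 there, from batches 3 and 4, was not called (SE 0.71, adjusted p = 0.286). PCDHGA1 had 16 and 31 counts in total RNA of the IGF2BP2 clone against 3, 3, 5 and 2 (2.46, SE 0.57, adjusted p = 0.00336). PCDHGA1 also rose in its nuclei (11 and 23 counts against 1, 2, 3 and 5) and its cytoplasm (3.16, SE 0.86, adjusted p = 0.00175). In the cytoplasm PCDHGA2 had 10 and 4 counts and PCDHGB2 8 and 6 in the IGF2BP2 clone, beside at most 3 and 5 in the libraries of the control and the other 2 clones.

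PCDHGA10 was called in 2 clones on low counts. It had 8 and 15 counts in total RNA of the IGF2BP2 clone (3.13, SE 1.04, adjusted p = 0.0252), 10 and 12 in the IGF2BP3 clone (2.91, SE 1.06, adjusted p = 0.0372), and 6, 1, 2 and 0 in the control. These calls held in 12 and 9 of 18 alternatives. PCDHGA6 had 14 and 19 counts in nuclear RNA of the IGF2BP2 clone against 9, 15, 9 and 4, an overlap in counts, and was called there (1.35, SE 0.53, adjusted p = 0.0327).

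The gamma C-type genes behaved in another way. PCDHGC4 had 35, 34, 28 and 12 counts in total RNA of the control, 42 and 48 in the IGF2BP1 clone, 16 and 26 in the IGF2BP2 clone and 175 and 149 in the IGF2BP3 clone. In CPM the IGF2BP3 clone stood at 7.09 and 7.41 against 0.687 to 1.77 in the control and 0.989 and 1.11 in the IGF2BP2 clone. PCDHGC4 rose by 2.60 (SE 0.24, adjusted p = 3.1e-06) in the IGF2BP3 clone, and its change in the IGF2BP2 clone was -0.13 (SE 0.34, adjusted p = 0.79). In nuclei of the IGF2BP3 clone it had 77 and 93 counts against 25, 26, 13 and 5 (3.08, SE 0.36, adjusted p = 7.39e-10). In its cytoplasm PCDHGC4 had 75, 71, 34 and 30 counts, the last 2 of batch 5, against 7, 18, 12 and 9. The change, from batches 3 and 4, was 2.03 (SE 0.31, adjusted p = 9.2e-07). No library of this clone overlapped the control in any of the 3 RNA kinds, and the 3 calls held in all 19, 19 and 21 alternatives that gave a value.

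PCDHGC3, the member with the most counts in the control, had 116, 87, 113 and 84 counts in its total RNA and 316 and 249 in the IGF2BP3 clone, or 4.53 to 5.29 against 12.8 and 12.4 CPM. It rose by 1.10 (SE 0.16, adjusted p = 0.000113). In nuclei of that clone it had 121 and 162 counts against 77, 107, 51 and 30, or 6.48 and 8.54 CPM against 1.88 to 4.10, and rose by 1.63 (SE 0.23, adjusted p = 5.58e-08). In the cytoplasm it rose by 0.49 (SE 0.15, adjusted p = 0.00451), where the libraries of batches 3 and 4 stood at 6.03 and 7.35 CPM, above every control (3.35 to 4.56), and those of batch 5 at 4.22 and 4.13, within the control's range. This cytoplasmic call was lost without the batch term (0.27, adjusted p = 0.181), in DESeq2 (0.50, adjusted p = 0.0796) and without control replicate 3 (0.42, adjusted p = 0.0581). The calls in total and nuclear RNA held in all 19 alternatives each.

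In the IGF2BP2 clone PCDHGC3 went the other way in the cytoplasm. It had 67 and 65 counts there, 2.73 and 2.99 CPM, below all 4 control libraries, and fell by 0.68 in log2 units (SE 0.18, adjusted p = 0.0011). Without control replicate 4 the value was -0.57 (adjusted p = 0.0501). PCDHGC4 had 10 and 6 cytoplasmic counts in that clone, a change of -1.02 (SE 0.49, adjusted p = 0.0661) that was not called. In total RNA the change of PCDHGC3 was -0.42 (SE 0.19, adjusted p = 0.0797), which passed in 6 of 19 alternatives, among them the fit on batches 3 and 4 alone (-0.41, adjusted p = 0.0362) and the one without IGF2BP2 knockout replicate 2 (-0.75, adjusted p = 0.0464). PCDHGC5, the last gene of the cluster, stayed between 0 and 9 counts in every library and was not tested. It had 9 and 8 counts in nuclei of the IGF2BP3 clone against 1, 1, 1 and 2 in the control.

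Both C-type genes also rose in the fractions of the IGF2BP1 clone. In its cytoplasm PCDHGC3 had 134 and 112 counts against 83, 84, 56 and 83 (0.56, SE 0.15, adjusted p = 0.00213) and PCDHGC4 28 and 28 against 7, 18, 12 and 9 (1.19, SE 0.35, adjusted p = 0.00611). In its nuclei PCDHGC3 had 122 and 188 counts (0.83, SE 0.20, adjusted p = 0.00125), PCDHGC4 48 and 48 (0.97, SE 0.31, adjusted p = 0.0177), and PCDHGA7 15 and 17 against 4, 9, 7 and 6 (1.40, SE 0.53, adjusted p = 0.0468). Without the shared library PCDHGC3 (1.12, adjusted p = 0.000243) and PCDHGC4 (1.19, adjusted p = 0.0286) remained called in nuclei and PCDHGA7 did not (1.22, adjusted p = 0.194). The nuclear calls of both C-type genes were lost without control replicate 2 (0.47 and 0.74) or IGF2BP1 knockout replicate 2 (0.47 and 0.74). Both were also lost with limma at either pseudocount, and that of PCDHGC4 in DESeq2 (adjusted p = 0.154). The cytoplasmic calls of both genes were lost without control replicate 1 (0.52 and 0.74) or IGF2BP1 knockout replicate 1 (0.52 and 0.74). So they were without the batch term (adjusted p = 0.054 and 0.0561) and in DESeq2 (adjusted p = 0.0588 and 0.0544). In total RNA neither C-type gene was called (0.39 for PCDHGC3, adjusted p = 0.122, and 0.36 for PCDHGC4, adjusted p = 0.348), and neither was without the shared library (0.47, adjusted p = 0.114, and 0.41, adjusted p = 0.463).

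The fractions gave the following counts of called members. In nuclear RNA 11 members were tested, of which 3, 7 and 2 were called, all higher, for IGF2BP1, IGF2BP2 and IGF2BP3, where 25.7%, 49.7% and 50.4% of the 18732 genes were called and 12.7%, 24.8% and 25.1% were called higher. In cytoplasmic RNA 10 members were tested. Called members numbered 2 (all higher), 6 (5 higher and 1 lower) and 3 (all higher), where 44.4%, 64.2% and 64.7% of 18212 genes were called. Of these genes 22.5%, 30.9% and 31.5% were called higher and 21.9%, 33.2% and 33.2% lower. With both directions counted, the members' share lay near or below the share of all genes called in every RNA kind of the IGF2BP1 and IGF2BP3 clones. So it did in the cytoplasm of the IGF2BP2 clone, and it lay above in total and nuclear RNA of that clone. With calls higher alone, it lay well above the share of all genes in every RNA kind of the IGF2BP2 clone. It did so too in nuclear RNA of the IGF2BP1 clone and total RNA of the IGF2BP3 clone. No excess of calls among members is read from any of them, given the filter.

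**Figure D4:**
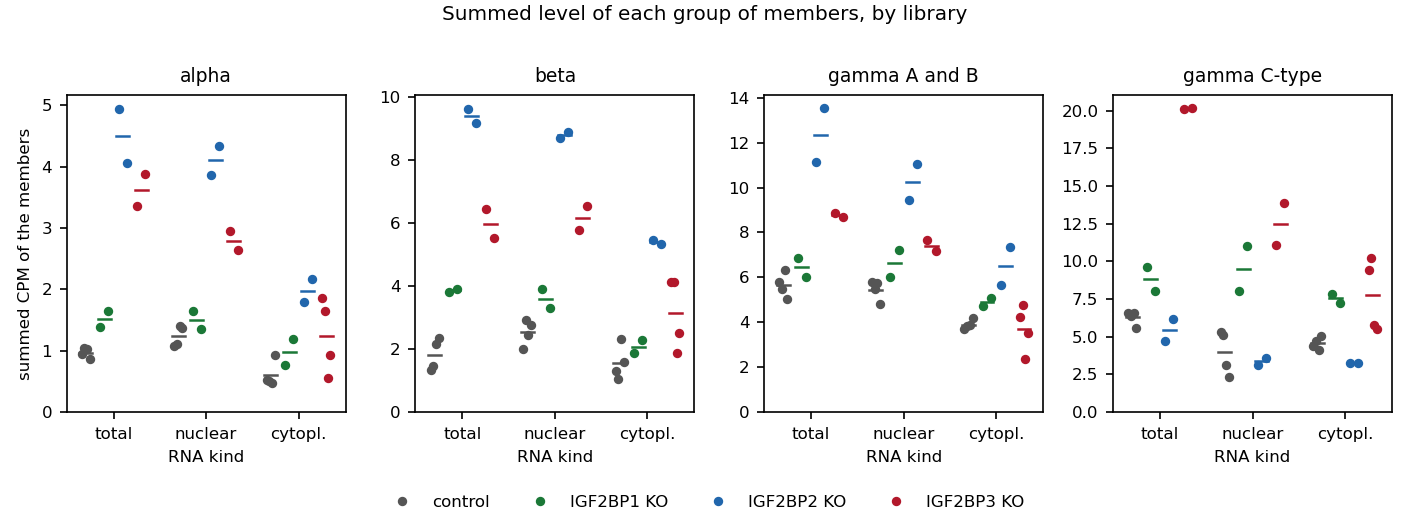
Summed CPM of the alpha, beta, gamma A and B, and gamma C-type members in each library (points) with the group mean (bar), by RNA kind and group. In total RNA the alpha, beta and gamma A and B sums are highest in the IGF2BP2 clone (4.50, 9.41 and 12.3 CPM) and the C-type sum is highest in the IGF2BP3 clone (20.1 CPM).

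Sums over each cluster are given as description with no test. In total RNA the control held 0.967 ± 0.0855 CPM of alpha, 1.82 ± 0.505 of beta, 5.66 ± 0.541 of gamma A and B and 6.30 ± 0.466 of gamma C-type genes (mean ± SD, n = 4). The IGF2BP2 clone held 4.65 times as much alpha, 5.17 times as much beta and 2.18 times as much gamma A and B, and 0.864 times as much gamma C (n = 2). The IGF2BP3 clone held 3.74, 3.29, 1.55 and 3.19 times as much. Without PCDHA10, the alpha sum was 6.91 times the control's in the IGF2BP2 clone and 10.2 times in the IGF2BP3 clone, on 2 to 7 control counts per library. The IGF2BP1 clone held 1.57, 2.12, 1.14 and 1.40 times the control's sums, and its library outside the shared pair held 1.39, 3.82, 6.85 and 9.63 CPM.

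The fractions gave smaller ratios for most of these sums. In nuclei the IGF2BP2 clone held 3.31, 3.47, 1.88 and 0.850 times the control's alpha, beta, gamma A and B and gamma C sums, and the IGF2BP3 clone 2.25, 2.43, 1.36 and 3.14 times. In the cytoplasm the ratios were 3.24, 3.44, 1.67 and 0.710 in the IGF2BP2 clone. In the IGF2BP3 clone, with batch 5 included, they were 2.03, 2.01, 0.952 and 1.69. Its cytoplasmic gamma A and B sum was 4.22 and 4.75 CPM in batches 3 and 4, above every control library (3.70 to 4.17 CPM). In batch 5 that sum was 2.35 and 3.51 CPM, below every control library. Without PCDHA10, the alpha sum was 2.59 and 3.48 times the control's in nuclei and 2.70 and 3.48 times in the cytoplasm of the 2 clones.

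Within gamma, PCDHGC4 made up 11.1% of the counts in the control's total RNA (9.30% to 13.2%), 14.3% in the IGF2BP1 clone (11.8% to 17.2%), 5.84% in the IGF2BP2 clone (4.35% to 7.80%) and 25% in the IGF2BP3 clone (22.7% to 27.4%). PCDHGC3 made up 40.8%, 42.4%, 24.1% and 43.6%. PCDHGA11 made up 27.1%, 22.2%, 28.1% and 16.4% in the same order. The intervals of the control and the IGF2BP2 clone did not overlap for PCDHGC4 (above) or for PCDHGC3 (37.8% to 43.9% against 21.1% to 27.3%).

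Levels of different members were set side by side only per kilobase of the exon sequence that no other gene of the cluster shares. On this scale PCDHGC3 stood at 1.51 CPM per kilobase in total RNA of the control, PCDHGA11 at 0.893, PCDHGC4 at 0.471, and PCDHA10 at 0.0792 over its long own exons. In the IGF2BP2 clone the order was PCDHGA11 (1.36), PCDHGC3 (1.30), PCDHB2 (0.563), PCDHGA7 (0.492) and PCDHB15 (0.435). The first 2 overlapped between libraries. In the IGF2BP3 clone it was PCDHGC3 (3.87), PCDHGC4 (2.60), PCDHGA11 (1.30), PCDHB2 (0.406) and PCDHB15 (0.348). In the cytoplasm of the control PCDHGC3 (1.21), PCDHGA11 (0.692) and PCDHGC4 (0.213) led.

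The IGF2BP2 and IGF2BP3 clones, which share batches 3 and 4, were also compared directly. In total RNA 7 of the 16 tested members were called, where 43.3% of genes were called. PCDHGC4 (2.73, SE 0.24, adjusted p = 2.75e-06) and PCDHGC3 (1.52, SE 0.16, adjusted p = 1.39e-05) were higher in the IGF2BP3 clone. The 5 lower ones were PCDHA10 (-1.07), PCDHGA1 (-2.11), PCDHGA7 (-1.44), PCDHB12 (-1.57) and PCDHB14 (-1.50). In nuclear RNA 5 of 11 were called, where 48.2% of genes were called, with PCDHGC4 (2.69) and PCDHGC3 (1.49) higher and PCDHA10 (-1.10), PCDHGA1 (-1.32) and PCDHGA7 (-1.20) lower. In cytoplasmic RNA 5 of 10 were called, where 62.7% of genes were called, with PCDHGC4 (3.05, SE 0.32, adjusted p = 4.92e-10) and PCDHGC3 (1.17, SE 0.15, adjusted p = 2.07e-08) higher and PCDHA10 (-0.76), PCDHGA1 (-2.18) and PCDHGA7 (-2.58) lower. The same 2 C-type genes were higher, and PCDHA10, PCDHGA1 and PCDHGA7 lower, in each RNA kind.

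The other pairs of clones were compared in the cytoplasm only through the batch term, since they share no batch. PCDHGC3 (-1.25, SE 0.23, adjusted p = 2.88e-05) and PCDHGC4 (-2.21, SE 0.61, adjusted p = 0.00276) were lower in the IGF2BP2 than in the IGF2BP1 clone, 2 of 10 members where 48.4% of genes were called. Between the IGF2BP3 and IGF2BP1 knockouts 0 of 10 members were called, where 51.3% of genes were called. PCDHGC4 differed there by 0.84 (SE 0.51, adjusted p = 0.175) and PCDHGC3 by -0.07.

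Batches moved the C-type genes too. In nuclear RNA of the control PCDHGC3 stood at 3.97 and 4.10 CPM in batches 1 and 2 and at 2.46 and 1.88 in batches 3 and 4, a difference of -0.95 (SE 0.24, adjusted p = 0.000979), and PCDHGC4 differed by -1.27 (SE 0.44, adjusted p = 0.0201). These were 2 of 6 members tested, where 26.5% of genes were called, and without control replicate 4 neither was called (-0.79 and -0.92). In total and cytoplasmic RNA 0 of 4 members were called between these control batches, where 31.2% and 26.3% of genes were called. In the cytoplasm of the IGF2BP3 clone, batch 5 was lower than batches 3 and 4 for PCDHA10 (-1.82), PCDHB15 (-1.27), PCDHGC4 (-0.92) and PCDHGC3 (-0.52), 4 of 7 tested where 58.7% of genes were called. PCDHGC4 of both batch 5 libraries (1.45 and 1.32 CPM) was still above every control library (0.337 to 0.827 CPM).

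Between the fractions of the control, PCDHA10 was higher in nuclear than in cytoplasmic RNA (0.94, SE 0.32, adjusted p = 0.0136) and PCDHGC3 lower (-0.46, SE 0.18, adjusted p = 0.03), 2 of 5 members where 65.9% of genes were called. Neither was called without nuclear control replicate 3 (0.76 and -0.41). The ratio of nuclear to cytoplasmic RNA changed for 0 of 11 members in the IGF2BP1 clone and 0 of 11 in the IGF2BP2 clone, where 4.11% and 17.5% of genes were called. It changed for 1 of 11 in the IGF2BP3 clone, where 10.9% of genes were called: PCDHGC3, by 1.09 (SE 0.28, adjusted p = 0.0036). That call was lost without the batch term (0.52, adjusted p = 0.466), without control replicate 4 (0.60 without its nuclear and 0.61 without its cytoplasmic library, adjusted p = 0.484 for both) and without IGF2BP3 knockout replicate 2 (0.95 for both, adjusted p = 0.114 and 0.115). Total RNA of the IGF2BP3 clone held more PCDHGC3 (12.4 to 12.8 CPM) than its nuclear (6.48 to 8.54 CPM) or cytoplasmic RNA (4.13 to 7.35 CPM); the 3 RNA kinds were scaled separately, so these levels are not compared by a test.

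Genes known to act on the clusters moved in part. Of 26 genes for CTCF, cohesin, DNA methylation and heterochromatin, 0 rose and 7 fell in total RNA of the IGF2BP1 clone, 6 rose and 8 fell in the IGF2BP2 clone, and 1 rose and 9 fell in the IGF2BP3 clone. Over all genes 10.7%, 23.3% and 23.5% were called higher and 13.5%, 23.7% and 23.4% lower. With both directions counted, the list's calls lay near the background in the IGF2BP1 clone and near or below it in the others. Taken alone, its calls lower lay above their background in each clone and its calls higher near or below theirs. Their median changes were -0.10, -0.07 and -0.21 beside 0.00, 0.02 and 0.02 over all genes. DNMT3B, a de novo DNA methyltransferase known to methylate promoters of clustered protocadherins, fell by 0.53 on the log2 scale in the IGF2BP1 clone (adjusted p = 0.00145) and by 1.02 in the IGF2BP2 clone (adjusted p = 3.53e-06). TRIM28, a corepressor that recruits the histone methyltransferase SETDB1, fell by 0.89 in the IGF2BP3 clone (adjusted p = 2.81e-06). In nuclear RNA 0, 4 and 1 of the list rose and 4, 7 and 11 fell in the 3 clones. All genes there were called higher in 12.7%, 24.8% and 25.1% and lower in 13.0%, 24.9% and 25.3%. In cytoplasmic RNA 13, 4 and 2 of the list rose and 5, 17 and 21 fell. All genes there were called higher in 22.5%, 30.9% and 31.5% and lower in 21.9%, 33.2% and 33.2%. The list's calls lower lay well above these shares in the IGF2BP2 and IGF2BP3 clones, and its calls higher did so in the IGF2BP1 clone. Among those that fell in the cytoplasm of the IGF2BP3 clone were the maintenance methyltransferase DNMT1 (-1.08) and the cohesin subunit SMC3 (-0.68). Their part in the protocadherin changes was not tested.

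Protocadherins outside the clusters and other related genes are read against the same shares of all genes in total RNA, 24.2%, 47% and 46.9% called in the 3 clones. Of 10 protocadherins outside the clusters tested in total RNA, 2 rose in the IGF2BP1 clone, 4 rose and 2 fell in the IGF2BP2 clone, and 7 rose in the IGF2BP3 clone. PCDH1 rose by 1.88, 1.84 and 2.88 and PCDH9 by 0.49, 1.10 and 1.61 in the 3 clones. Of 10 partners of the cytoplasmic domains (focal adhesion kinases, WAVE complex subunits and MARCKS), 0, 1 and 1 rose and 3, 2 and 6 fell. MARCKS, an actin regulator, fell by 1.50 on the log2 scale in the IGF2BP3 clone, and the WAVE complex subunit NCKAP1 by 0.71. Of 13 tested genes beside the clusters, 1, 2 and 3 rose and 1, 7 and 1 fell, so the neighbouring genes did not all move with the clusters.

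Markers of other cell types were counted in the same way. All 7 kidney and neurofilament genes taken as traits of HEK293 cells were above 3 counts in every group of total RNA. Their sum was 297 to 325 CPM in total RNA of the control, 245 to 278 in the IGF2BP1 clone, 335 to 346 in the IGF2BP2 clone and 160 to 166 in the IGF2BP3 clone. It was also lowest in the IGF2BP3 clone in nuclei (146 to 149 against 286 to 344 CPM in the control) and cytoplasm (173 to 213 against 372 to 381 CPM). The 7 genes did not fall together: in total RNA 1, 1 and 3 were called higher and 3, 2 and 4 lower in the 3 clones. In each fraction of the IGF2BP3 clone 3 were called higher and 4 lower. There 25.1% (nuclei) and 31.5% (cytoplasm) of all genes were called higher and 25.3% and 33.2% lower. Of 13 neuron markers 10 were tested: 2 rose and 2 fell in the IGF2BP1 clone, 5 rose and 2 fell in the IGF2BP2 clone and 5 rose and 3 fell in the IGF2BP3 clone, where 10.7%, 23.3% and 23.5% of all genes were called higher and 13.5%, 23.7% and 23.4% lower. Their sum was 27.9 to 33.5 CPM in the control and 31.3 to 34.9, 49.1 to 54.6 and 52.1 to 52.8 CPM in the 3 clones. SNAP25, a synaptic vesicle fusion protein, rose by 4.15 and 5.60 in the IGF2BP2 and IGF2BP3 knockouts, while 2 and 3 others of the list fell. In cytoplasmic RNA SNAP25 had at most 3 counts in every control library, at the floor of detection. ELAVL3 and DCX were at most 3 counts in every control library. Blood markers summed to 3.64 to 9.44 CPM, with PTPRC, CD53 and CD48 at most 3 counts everywhere in total RNA. Fibroblast markers summed to 20.9 to 74.5 CPM, with COL1A2, DCN and THY1 at most 3 counts, and kidney tubule markers to 32.1 to 53.7 CPM, with UMOD and AQP2 at most 3. In total and nuclear RNA the neuron and fibroblast sums lay above the control's in every library of the IGF2BP2 and IGF2BP3 clones. In the cytoplasm the neuron sum did too, while the fibroblast sum overlapped (19.0 to 23.5 CPM in the control, 22.9 to 24.6 and 20.2 to 44.0 CPM in these clones). The part of the kidney, neuron and fibroblast markers in these results was not tested.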

How the data were processed

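The members and the gene lists were chosen with earlier results of these data known. The authors deposited whole-number read counts per gene, in 1 table per RNA kind, and FPKM values for the same libraries, which served only as an alternative. STAR, featureCounts, DESeq2 1.44.0 and GRCh38 are named in the submitters' processing notes. The annotation, the strand setting and the handling of shared exons and multiply mapped reads are not given in the sources used here, while the library kit is stranded per the labels' protocols. Libraries were 50-base paired reads from 200 ng of RNA; 13689067 to 26119480 counts per library set the precision.

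All libraries of an RNA kind entered 1 edgeR fit (edgeR 4.0.16, R 4.3.3; TMM scaling, default low-count filter, quasi-likelihood test) with terms for group and for the batch given in the labels; SEs were taken from the F statistic. Changes of the nuclear to cytoplasmic ratio came from 1 fit over both fractions. Alternatives used other scalings, filters of none or 50 counts, no batch term, only a knockout's own batches, each library left out, DESeq2 1.42.0 and limma 3.58.1 on log2(FPKM + 1) or log2(FPKM + 0.1). The edgeR test of the IGF2BP2 knockout against the control was checked on simulated data in each RNA kind. The other comparisons, DESeq2 and limma were not checked in this way. Since the labels give the batch, it was kept as the block; deviations of libraries of the same batch correlated at only -0.08 to 0.01.

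Values are given for the 3 highest members per cluster and group in cytoplasmic and total RNA, the C-type members, members on in a group and off in another, and the 12 with the widest spread of cytoplasmic group means of log2(CPM + 0.5); other members are named where a count or call singled them out. Levels between members were to be compared on FPKM, but the deposited FPKM of members divide by the whole gene span (implied length 0.987 to 1.10 times the span, 4.78 to 43.0 times the exon length in alpha and gamma), so CPM per kilobase of own exon sequence replaced them. Nothing says that replicates were separate cultures, so p-values measure only the spread between these libraries. The number of per-sample columns left unused was 0.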

Additional observations from a re-analysis of the deposited data

Results flagged for a closer look

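Among 59 groups of 4 libraries examined for a library that stands apart, 2 had a gap to the next library above Dixon's critical share of the range; chance gives about 1 in 20 such groups. PCDHB13 had 0.459 CPM in replicate 2 of the IGF2BP3 knockout in cytoplasmic RNA, where the other 3 libraries were close together (gap 0.983 of the range). The alpha genes summed to 0.933 CPM in replicate 4 of the control in cytoplasmic RNA, above the other 3 libraries (gap 0.889 of the range).

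The change of PCDHGC3 in the IGF2BP3 knockout differed between nuclear and cytoplasmic RNA, by 1.09 on the log2 scale in edgeR's interaction term (SE 0.28, adjusted p = 0.0036). The controls of batches 3 and 4 had less nuclear PCDHGC3 than those of batches 1 and 2, and the call was lost without the batch term.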

How the results depend on the processing

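Over 227 results for single members, 3802 alternative values kept direction and call, 252 lost the call, 81 gained it and 0 reversed. Of counts of called or expressed members, 357 alternative values stayed within 1.5 times and 108 moved. Order below is IGF2BP1, IGF2BP2, IGF2BP3 knockout against control, unless named, and the cause of these moves was not tested except where fewer members were tested.

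A minimum count of 50, which removes most members from the test, left 0, 1 and 2 calls in total RNA (from 2, 11 and 8), 3 between the IGF2BP3 and IGF2BP2 knockouts (from 7), 1 in nuclear RNA of the IGF2BP2 knockout (from 7), 3 between those clones (from 5) and 1 between control batches (from 2). In cytoplasmic RNA it left 1 for the IGF2BP2 knockout (from 6), 2 between those clones (from 5), 2 between batch 5 and batches 3 and 4 (from 4), and 1 between nucleus and cytoplasm (from 2). With no filter there were 3 calls between the clones in nuclear RNA and 4 between nucleus and cytoplasm. DESeq2, which gave no adjusted p for 23 of 173 member results, called 1, 4 and 3 members in total RNA and 2 between the IGF2BP3 and IGF2BP2 knockouts. It called 1 and 3 in nuclear RNA of the IGF2BP1 and IGF2BP2 knockouts, 2 between the clones, 0, 2 and 1 in cytoplasmic RNA, 3 between the clones and 0 between nucleus and cytoplasm. limma on log2(FPKM + 1), where spans make all values of members small, called 1 and 5 in total RNA of the IGF2BP1 and IGF2BP3 knockouts, 1 and 4 in nuclear RNA, 1 between the IGF2BP3 and IGF2BP1 knockouts in the cytoplasm and 0 between nucleus and cytoplasm. With a pseudocount of 0.1 it called 5 in total RNA of the IGF2BP3 knockout, 1, 4 and 4 in nuclear RNA, 3 between the IGF2BP3 and IGF2BP2 knockouts and 1 between the IGF2BP3 and IGF2BP1 knockouts in the cytoplasm, and 0 between nucleus and cytoplasm. Upper-quartile scaling, and a fit on the knockout's own batches, each gave 5 calls in nuclear RNA of the IGF2BP3 knockout (from 2).

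Replicate numbers equal the batch in the control and the IGF2BP1 knockout. Replicates 1 and 2 of the IGF2BP2 and IGF2BP3 knockouts are of batches 3 and 4. The fit without the batch as a block gave 5 calls in nuclear RNA of the IGF2BP3 knockout (from 2) and 0 in cytoplasmic RNA of the IGF2BP1 knockout (from 2). It gave 4 between the IGF2BP2 and IGF2BP1 knockouts (from 2) and 2 between the IGF2BP3 and IGF2BP1 knockouts (from 0). It also gave 1 between nucleus and cytoplasm (from 2) and 0 for the ratio in the IGF2BP3 knockout (from 1). Without the block, other counts of calls stayed within 1.5 times.

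Leaving out 1 library at a time gave 1 to 2, 4 to 15 and 2 to 8 calls in total RNA, 2 to 8 between the IGF2BP3 and IGF2BP2 knockouts and 0 to 1 between control batches. It gave 0 to 2, 2 to 9 and 2 to 5 in nuclear RNA, 2 to 6 between the clones and 0 to 2 between control batches. In cytoplasmic RNA it gave 1 to 2, 2 to 6 and 2 to 4, 3 to 5 between the IGF2BP3 and IGF2BP2 knockouts, 2 to 3 and 0 to 1 for the other pairs, and 2 to 4 for batch 5. Between nucleus and cytoplasm it gave 0 to 3, and for the ratio in the IGF2BP3 knockout 0 to 1. The lowest values came without control replicate 3 in nuclear RNA of the IGF2BP2 knockout (2), without control replicate 4 in its cytoplasm (2), and without control replicate 2 or IGF2BP1 knockout replicate 2 in nuclear RNA of the IGF2BP1 knockout (0). Nuclear RNA of the IGF2BP3 knockout had 5 calls without control replicate 1 or 2 or either IGF2BP1 knockout library. A group left with 1 library was assumed to vary like the others.

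With 20 counts in place of 10 as the limit for on, 2, 3 and 7 members were on in total RNA of the control and the IGF2BP1 and IGF2BP2 knockouts (from 4, 7 and 14), 2, 4 and 5 in nuclear RNA (from 4, 7 and 10), besides 3 in cytoplasmic RNA of the IGF2BP1 knockout (from 6). With 5 counts, 12, 24 and 20 were on in total RNA of the knockouts, 16 (IGF2BP2) and 14 (IGF2BP3) in nuclear RNA. The cytoplasm then had 5 and 15 for the control and the IGF2BP2 knockout. Leaving out 1 library gave 9 to 10, 15 to 18 and 11 to 15 on in total RNA of the knockouts (4 to 4 in the control). It gave 4 to 5, 8 to 9, 10 to 14 and 7 to 8 in nuclear RNA, and 2 to 2, 6 to 6, 9 to 12 and 4 to 5 in cytoplasmic RNA, for the control and the knockouts. With only batches 3 and 4, 7 were on in the cytoplasm of the IGF2BP3 knockout.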
